A study of Mus musculus with 6 samples.

Results

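Hmga2 and 6 other oncofetal genes, that is, genes that are active in the embryo, fall silent in most adult tissues and return in tumors, were followed in sorted mouse thyroid tumor cells. The 7 genes, of 35027 in the table, were the rows named Hmga1, Hmga2, Igf2bp1, Igf2bp2, Igf2bp3, Lin28a and Lin28b. They were chosen by name. Hmga2 was chosen because it was higher in BrafYAP tumors in these same libraries, so its difference is given below as a description without a test. The question was whether the other 6 genes followed it.

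BrafYAP tumors were compared with YAP tumors, from which they differ by the added Braf mutation. YAP mice expressed YAPS127A, a mutant of the Hippo pathway coactivator that stays in the nucleus, from a doxycycline (dox)-inducible transgene restricted to the thyroid. BrafYAP mice carried the same transgene plus BrafV600E, an activated form of the kinase upstream of MEK and ERK, expressed from its own locus. In the study's design a thyroid-specific Cre opens the rtTA and Braf alleles in follicular cells. All mice ate dox chow from 4 weeks of age per the labels and the study's methods, whereas a sentence of its results gives a start at 3 months. About 20000 cells positive for the red fluorescent protein Kate were sorted per library. There were 3 libraries per genotype (numbered 1, 2 and 3 for YAP, and 1, 2 and 6 for BrafYAP). Per the labels, YAP libraries pooled 3 tumors each while those of BrafYAP came from 1 tumor each, whereas the study's methods give a single tumor per mouse for every replicate. If the labels hold, pooling and genotype cannot be told apart. Tumors with mutant Braf alone and normal thyroid were not analysed here.

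The genes belong to 3 families. HMGA proteins bind AT-rich DNA through short AT-hook motifs and bend chromatin without activating transcription by themselves. IGF2BP proteins bind mRNAs in the cytoplasm, many of them methylated on adenosine (m6A), and protect them from decay. LIN28 proteins bind the precursors of the let-7 microRNAs and stop their maturation. The families are joined by let-7, which is low in the embryo, rises with differentiation and represses its targets through the 3′ UTR. HMGA2 and IGF2BP3 are both known as proteins that reappear in human thyroid carcinomas.

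The let-7 sequences are given first because their seed, bases 2 to 8, has a match in the 3′ UTR of all 7 genes. RefSeq lists 9 mature let-7 and miR-98 sequences from the 5′ arm in the mouse, and all 9 carry 1 and the same seed. A few that differ outside the seed are printed here, with the seed in capitals.
let-7a: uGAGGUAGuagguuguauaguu
let-7e: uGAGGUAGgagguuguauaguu
let-7g: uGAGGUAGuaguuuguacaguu
let-7i: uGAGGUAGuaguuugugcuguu
miR-98: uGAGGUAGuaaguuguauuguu

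The 7 bases that pair with this seed, CTACCTC, were then counted in the longest annotated 3′ UTR of each coding gene (GENCODE M21 on mm10, sense strand). All 7 genes held at least 1 match. Of 21020 coding genes with a 3′ UTR, 9.02% held at least 1 match and 1.08% at least 2. The share was 15.2% among UTRs of at least 1000 nt, and the UTRs of the 7 genes ran from 1183 nt (Hmga1) to 6337 nt (Igf2bp1). Hmga2, Igf2bp1 and Lin28b held 4 matches each, a number that only 4 coding genes exceeded. Lin28a held 2 matches and Hmga1, Igf2bp2 and Igf2bp3 held 1 each. Most of these genes are well-known let-7 targets, so their matches describe the choice of genes and are not independent of it.

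The sites are shown for Hmga2, whose level differed most, for Igf2bp2, the IGF2BP gene with the largest share, and for Igf2bp1, which has as many matches as Hmga2. Each line gives 23 bases of the transcribed strand on mm10, with the bases that pair with the seed in capitals.
Hmga2 site 1, chr10:120364224-120364246, minus strand: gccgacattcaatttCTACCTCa
Hmga2 site 2, chr10:120362987-120363009, minus strand: ccccactcctcaataCTACCTCt
Hmga2 site 3, chr10:120362549-120362571, minus strand: ctgatttgcaaggaaCTACCTCc
Hmga2 site 4, chr10:120361691-120361713, minus strand: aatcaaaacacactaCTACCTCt
Igf2bp1 site 1, chr11:95961778-95961800, minus strand: gctgtgcgaagtaaaCTACCTCa
Igf2bp1 site 2, chr11:95959357-95959379, minus strand: cagcagtgctattaaCTACCTCa
Igf2bp1 site 3, chr11:95958763-95958785, minus strand: gtataaatggatgaaCTACCTCa
Igf2bp1 site 4, chr11:95958140-95958162, minus strand: acttttggttttaatCTACCTCt
Igf2bp2 site, chr16:22059473-22059495, minus strand: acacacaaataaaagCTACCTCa

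An A after the match, opposite base 1 of the microRNA, is part of the longer type of let-7 site. It followed 1 of 4 matches in Hmga2, 3 of 4 in Igf2bp1 and the single match in Igf2bp2. Levels of the mature microRNAs were not analysed here.

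**Figure D1:**
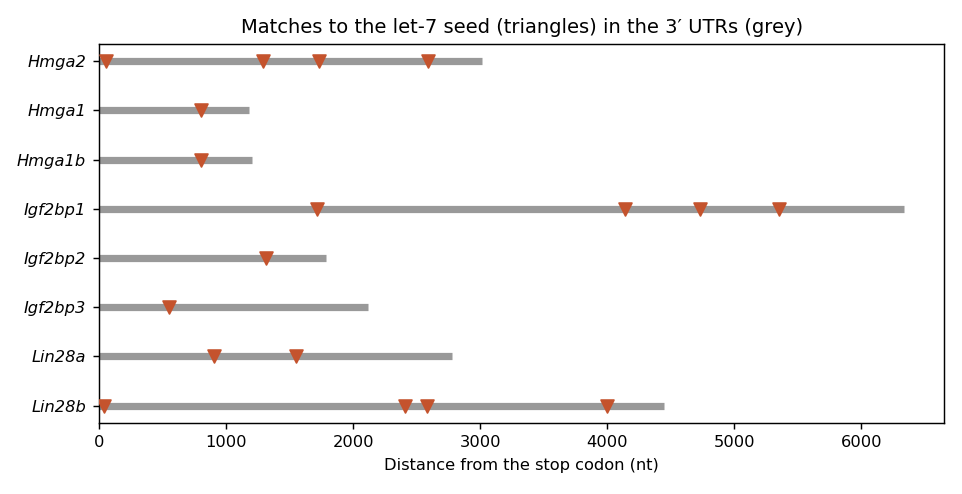
Grey bars are the longest annotated 3′ UTRs of the 7 genes and of Hmga1b, drawn from the stop codon in nucleotides, and triangles mark matches to the let-7 seed. Hmga2, Igf2bp1 and Lin28b hold 4 matches each, and Hmga1 and Hmga1b hold 1 match at the same place, 801 nt from the stop codon.

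The libraries held 26.2 to 36.9 M estimated reads. Values are given as scaled reads, the deposited values with their division by gene length undone, in which 1 read was worth 0.777 to 1.21 scaled reads. Levels of different genes are compared as TPM on exonic length. BrafYAP replicate 6 stood apart from the rest: Pearson's r with the other 5 libraries was 0.731 to 0.837 across genes, against 0.833 to 0.968 among those 5. It was also the library with the fewest Yap1 reads (261 scaled reads, against 774 to 1451 in the others), and it had the most Tg. Whether transgene reads were counted as Yap1 is not given in the sources used here, so this level does not settle whether that library carries the transgene. Pax8, a defining thyroid factor, was at 5136 to 14514 scaled reads in the 6 libraries, whereas Tshr was at 0 in BrafYAP replicates 1 and 2. Macrophage transcripts were abundant in these sorted cells, with Lyz2 at 44199 to 589540 scaled reads, and the sum of 10 immune markers was 180599 to 639730 in YAP and 51020 to 195344 in BrafYAP.

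Hmga2 was nearly silent in YAP tumors and present in every BrafYAP tumor. The estimated reads were 12, 15 and 18 in YAP replicates 1, 2 and 3, and 285, 691 and 470 in BrafYAP replicates 1, 2 and 6. On the common scale this was 12.2, 18.2 and 18.3 scaled reads in YAP, and 313, 537 and 413 in BrafYAP. The groups lay far apart, and the lowest BrafYAP library was above the highest YAP library by more than the whole range within either group. The means were 16.2 ± 3.49 (SD, n = 3) and 421 ± 112 (SD, n = 3), a ratio of 25.9, and the log2 fold change of log2(scaled reads + 1) was 4.60 (SE 0.41). Of 16805 genes with a mean of at least 10 scaled reads, 69 had a larger rise.

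Hmga2 was also high in the library that stood apart. BrafYAP replicate 6, with its low Yap1, had 413 scaled reads of Hmga2, and the log2 fold change without that library was 4.60. YAP replicate 3 and BrafYAP replicate 1 had nearly the same immune marker sum, 180599 and 195344, mostly from Lyz2 (158330 and 175505 scaled reads). Ptprc, another marker of that list, was at 1654.5 and 606 in them, so near-equal sums do not mean equal immune cell content. Hmga2 was at 18.3 and 313 scaled reads in these libraries, and the part of immune cells in its level was not tested. The gene spans 115 kb of chromosome 10 (chr10:120361275-120476469, minus strand) and 5.88% of that is exon. Of its 50-base stretches, 97.3% occurred in no other annotated transcript, and 2 antisense genes that overlap it, 1700006J14Rik and 9230105E05Rik, had 1 to 6 and 0 to 14 reads. Fewer expressing cells and less RNA per cell cannot be told apart in these bulk samples.

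The promoter of Hmga2 is printed because the gene was read out between tumors that differ in a MAPK pathway mutation on top of active YAP. YAP acts through TEAD factors, and ERK signaling acts in part through AP-1 and ETS factors. The window runs from 250 bases before to 50 bases after the start of the gene (RefSeq, GRCm38.p6, chr10:120476420-120476719, minus strand).
Hmga2 promoter: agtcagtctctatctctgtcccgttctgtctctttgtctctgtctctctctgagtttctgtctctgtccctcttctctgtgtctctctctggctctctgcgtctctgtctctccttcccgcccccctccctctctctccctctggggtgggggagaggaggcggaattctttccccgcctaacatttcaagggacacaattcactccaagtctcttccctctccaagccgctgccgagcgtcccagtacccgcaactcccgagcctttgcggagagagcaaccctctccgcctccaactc

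This window opens with a long run of T and C repeats and holds 57.7% G and C. It was searched on both strands for GGAATG (TEAD), TGANTCA (AP-1) and CCGGAAGT (ETS), which are present in 14.7%, 7.81% and 3.89% of 32851 mouse promoter windows of this length. None of the 3 was found in the windows of Hmga2, Hmga1, Igf2bp2, Igf2bp3, Lin28a or Lin28b. The table held no window for Igf2bp1. A window without these letters says nothing of sites elsewhere in the gene.

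Hmga1, the other HMGA gene, could not be read with certainty on its own. It lies on chromosome 17 (chr17:27556497-27563674, plus strand), and the mouse genome also holds Hmga1b, an intronless, nearly identical copy on chromosome 11 (chr11:120762794-120764419, plus strand). Of the 50-base stretches of Hmga1b transcripts, 89.0% also occur in Hmga1, and 55.0% of those of Hmga1 occur in Hmga1b. The reads were 50 nt long, so a read from a shared stretch, taken singly, fits either gene. The other 45.0% of Hmga1 stretches occurred in no other gene. Reads were sequenced in pairs, and whether mates could place them was not tested. Hmga1b is not among the 7 genes, and it and the sum of the pair were added after the values were seen.

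The reads of the pair were divided unevenly. Hmga1 had 624, 1689 and 3059 scaled reads in YAP replicates 1, 2 and 3, and 644, 755 and 5244 in BrafYAP replicates 1, 2 and 6. These groups overlapped completely, and BrafYAP replicate 6 alone was high. Hmga1b had 1572, 1832 and 5574 scaled reads in YAP, and 17409.5, 17224 and 10126 in BrafYAP. Its groups did not overlap, as was so in this direction for 11.7% of all genes tested. Hmga1b took 52.0 to 71.6% of the pair's reads in the YAP libraries and in BrafYAP replicate 6 it took 65.9%, but in BrafYAP replicates 1 and 2 it took 96.4% and 95.8%.

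The sum of the pair was 2196, 3520 and 8633 scaled reads in YAP, and 18053, 17979 and 15369 in BrafYAP. Every BrafYAP library was above every YAP library, which also held for 11.7% of all genes tested. The BrafYAP libraries were close to each other whichever way the reads had been split. The means were 4783 ± 3399.5 (SD, n = 3) and 17134 ± 1529 (SD, n = 3), with a log2 fold change of 2.07 (SE 0.49). This did not pass the threshold over all genes (limma, unadjusted p = 0.0037, adjusted p = 0.107). The adjusted p ranged from 0.0275 with array weights, the single setting of 13 that passed, to 0.266, and the direction was the same in all 13. Without BrafYAP replicate 6 the log2 fold change was 2.15.

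For Hmga1 alone the log2 fold change was -0.11 with an SE of 0.91 (limma, adjusted p = 0.956). Its 95% interval ran from -2.24 to 2.02. Its sign turned with median-ratio rescaling, and with array weights it was lower in BrafYAP (-1.78, adjusted p = 0.025), while the sum of the pair was higher under the same weights. Hmga1b alone had a log2 fold change of 2.52 (SE 0.52, limma unadjusted p = 0.0017, adjusted p = 0.091), higher in all 20 settings and past the adjusted threshold in 1 of them. In YAP replicate 3 and BrafYAP replicate 1 the pair had 8633 and 18053 scaled reads. These libraries had nearly equal immune marker sums but unlike Ptprc (1654.5 and 606 scaled reads), and the part of immune cells was not tested.

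**Figure D2:**
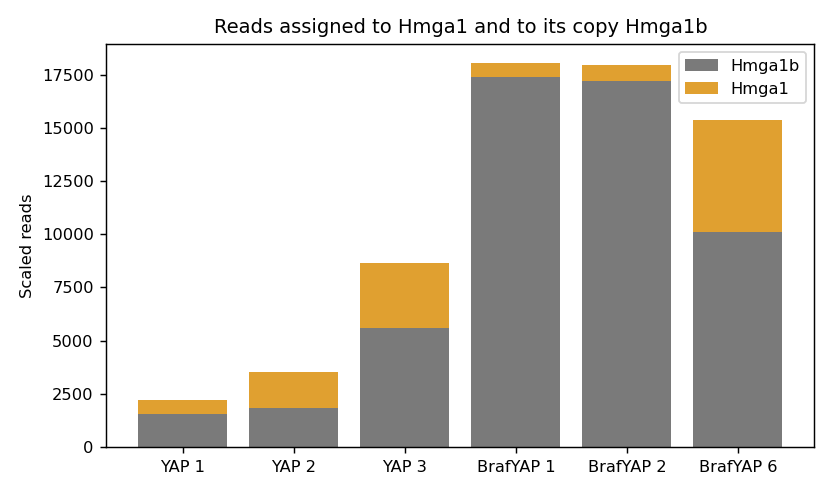
Bars show the scaled reads of each library, grey for Hmga1b and orange for Hmga1. The 3 BrafYAP bars reach 15369 to 18053 scaled reads and the 3 YAP bars 2196 to 8633, whereas the orange part alone separates no groups and is largest in BrafYAP replicate 6.

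Hmga1b, as an intronless copy, has an upstream sequence of its own. The Hmga1b window (RefSeq, GRCm38.p6, chr11:120762544-120762843, plus strand) is printed because it was the single window of the set with a motif, an AP-1 match 237 bases before the start, in capitals.
Hmga1b promoter: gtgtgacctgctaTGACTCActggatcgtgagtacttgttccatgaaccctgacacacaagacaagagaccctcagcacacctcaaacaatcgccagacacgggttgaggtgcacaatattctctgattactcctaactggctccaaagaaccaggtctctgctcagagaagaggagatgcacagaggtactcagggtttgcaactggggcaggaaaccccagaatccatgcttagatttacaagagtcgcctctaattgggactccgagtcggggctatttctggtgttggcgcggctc

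The match is a description of letters, and 7.81% of all windows hold one. The values used here do not tell which of the copies was transcribed.

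Of the 3 IGF2BP genes, none passed the threshold, and Igf2bp2 was the one with the highest level. Igf2bp2, the member that also remains on in adult tissues, where it binds mRNAs of growth and metabolism, had 387, 478 and 848 scaled reads in YAP, and 929.9, 966 and 739 in BrafYAP. The groups overlapped through YAP replicate 3. The means were 571 ± 244 (SD, n = 3) and 878 ± 122 (SD, n = 3). The log2 fold change was 0.69 (SE 0.37, limma unadjusted p = 0.0986, adjusted p = 0.33), with a 95% interval from -0.17 to 1.55. It was positive in all 19 settings, and without YAP replicate 3 it was 1.02 (limma unadjusted p = 0.027, adjusted p = 0.299). Without YAP replicate 1 it fell to 0.45 (unadjusted p = 0.248), and with array weights, which give less weight to libraries that fit the model poorly, to 0.29 (unadjusted p = 0.284). Its annotated transcripts shared no 50-base stretch with those of another gene. Exons are 7.10% of the gene (chr16:22059009-22163299, minus strand), and its introns were not compared.

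Igf2bp1, the IGF2BP protein most tied to embryonic tissue and to the stability of Myc mRNA, showed no detectable difference between the groups. Its scaled reads were 381, 461 and 557 in YAP, and 421, 570.3 and 418 in BrafYAP. The ranges lay over each other almost entirely. The log2 fold change was 0.01 (SE 0.31, limma adjusted p = 0.985), turning negative under 4 of 18 alternatives, among them quantile normalization. Its 95% interval, -0.70 to 0.73, leaves out a change as large as that of Hmga2. Igf2bp1 has 4 let-7 matches, as Hmga2 does, and its gene lies at chr11:95957163-96005940 on the minus strand.

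Igf2bp3 was low everywhere. Its estimated reads were 17.6, 17.0 and 36.7 in YAP replicates 1, 2 and 3, and 58.2, 63.7 and 0 in BrafYAP replicates 1, 2 and 6. The library at 0, which allows up to 3 reads, decided the sign of the difference. With it the log2 fold change was -0.75 (SE 1.56, limma adjusted p = 0.807) and without it 1.19 (adjusted p = 0.255). Igf2bp3 (chr6:49085223-49214957, minus strand) overlaps Malsu1 on the opposite strand, 18.1% of its 50-base stretches are shared with it, and no strand was stated for the counting. Malsu1, a mitochondrial ribosome factor, had 19, 166 and 69 reads in YAP and 405, 904 and 644 in BrafYAP. Its part in the Igf2bp3 reads was not tested.

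The makeup of the IGF2BP family was compared per exonic length. Igf2bp2 made up 55.7, 56.3 and 64.9% of the summed level of the 3 genes in YAP, and 71.0, 66.8 and 69.8% in BrafYAP. Igf2bp1 made up 41.9, 41.5 and 32.5% in YAP, and 24.6, 30.1 and 30.2% in BrafYAP. Neither share overlapped between the groups. Since Igf2bp3 held at most 4.42% of the sum, these shares nearly mirror each other and are not separate observations. Shares within other gene families were not computed for comparison. The Igf2bp2 share averaged 69.2 ± 2.19% (SD, n = 3) in BrafYAP, 10.2 percentage points above the 59.0 ± 5.12% of YAP, with a two-sided exact permutation p of 0.1, the smallest that 3 against 3 can give (0.15 adjusted over the 3 shares). Igf2bp3 held 2.20 to 2.60% in YAP and 0 to 4.42% in BrafYAP. The summed level averaged 11.3 ± 4.28 TPM on exonic length for YAP (SD, n = 3) and 15.6 ± 2.62 for BrafYAP (exact permutation p = 0.3).

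**Figure D3:**
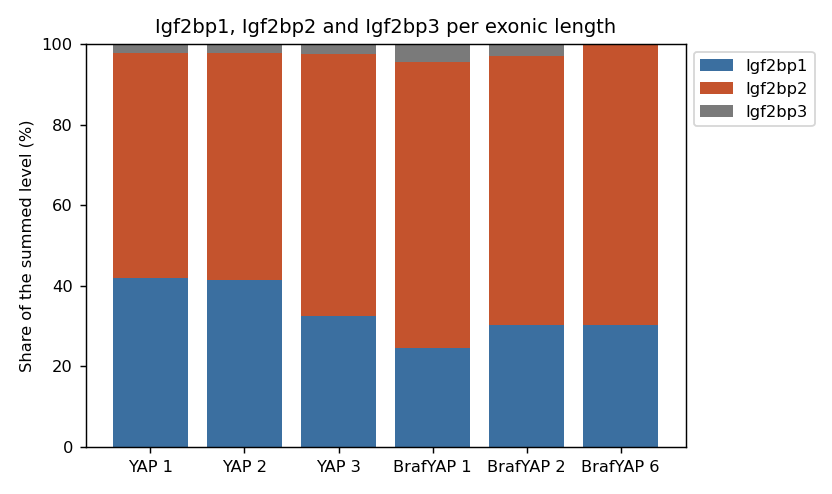
Each bar is 1 library and shows, in percent, the shares of Igf2bp1 (blue), Igf2bp2 (orange) and Igf2bp3 (grey) in their summed TPM on exonic length. The orange part covers 55.7 to 64.9% of the YAP bars and 66.8 to 71.0% of the BrafYAP bars, and the grey part is missing from BrafYAP replicate 6.

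The LIN28 genes were at or near 0 reads. Lin28b (chr10:45376620-45486395, minus strand), which keeps let-7 precursors out of the processing machinery in the nucleus, had 0 estimated reads in all 6 libraries, which allows up to 3 reads in each, or 0.0237 to 0.0337 TPM on exonic length. Lin28a (chr4:134003330-134018841, minus strand), which marks let-7 precursors for destruction in the cytoplasm, had 4 estimated reads in YAP replicate 3 and 0 in the others. Neither passed the minimum of 10 scaled reads, so neither entered the fit and no fold change is given. The BrafYAP libraries with 285 to 691 reads of Hmga2 therefore had no detectable transcript of either gene at this depth.

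Ordered by TPM on exonic length, the genes ran in YAP from the Hmga1 pair (239 ± 181, SD, n = 3) through Igf2bp2 (6.82 ± 3.22), Igf2bp1 (4.23 ± 0.949), Igf2bp3 (0.274 ± 0.127) and Hmga2 (0.210 ± 0.0478) to Lin28a and Lin28b. Igf2bp2 and Igf2bp1 lay within their spread of each other there, as did Igf2bp3 and Hmga2. In BrafYAP the order was the Hmga1 pair (927 ± 128, SD, n = 3), Igf2bp2 (10.8 ± 1.62), Hmga2 (5.64 ± 1.58), Igf2bp1 (4.41 ± 0.888) and Igf2bp3 (0.421 ± 0.372). Hmga2 and Igf2bp1 lay within their spread of each other in that group. Hmga2 was thus near the level of Igf2bp3 in YAP and near that of Igf2bp1 in BrafYAP, and far below the Hmga1 pair in both, at 4.19 to 7.24 per 1000 of its level in BrafYAP libraries and 0.557 to 1.43 in YAP libraries.

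**Figure D4:**
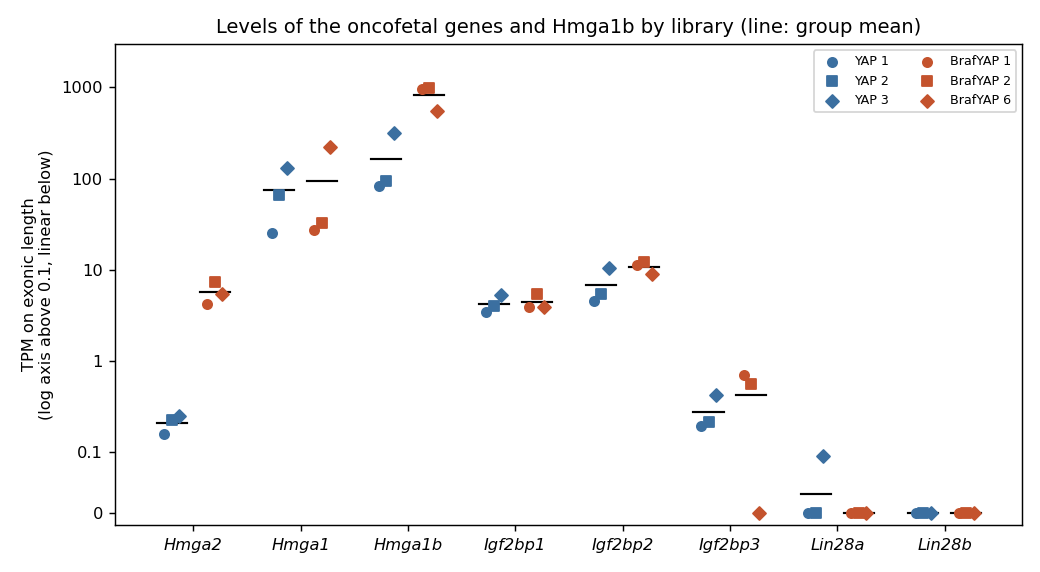
Points are libraries (blue for YAP, orange for BrafYAP), lines are group means, and the axis gives TPM on exonic length, logarithmic above 0.1 and linear below. Only Hmga2 and Hmga1b show groups that do not overlap, and Lin28b is at 0 in all 6 libraries. In scaled reads, every BrafYAP library was above every YAP library for 11.7% of all genes tested.

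Of the 6 genes other than Hmga2, 4 entered the fit, and 0 passed the adjusted threshold or an unadjusted p of 0.05 in limma, also with voom on the estimated reads. Over all 16805 genes tested, 0% passed the adjusted threshold, and 20.3% had an unadjusted p under 0.05 in either direction, 9.7% higher and 10.6% lower in BrafYAP. Every BrafYAP library was above every YAP library for 11.7% of genes, and for 0 of these 4. With the Hmga1 pair summed in place of Hmga1, 1 of 4 passed the unadjusted p, the pair itself. The median log2 fold change of all genes was -0.12, and median-ratio rescaling moved it to 0.01.

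The pattern of each gene over the 6 libraries was then set beside that of Hmga2, by the root mean square difference of log2(scaled reads + 1) after centring each gene. Among 13803 protein-coding genes with a mean of at least 10 scaled reads, the 5 nearest were Prl2c2, Sox7, Gm20458, Hao1 and Rab3b, with differences of 0.31 to 0.59 log2 units. Sox7, a transcription factor gene, was at 7.14 to 16.9 scaled reads in YAP and 193 to 287 in BrafYAP. Rab3b, a GTPase of secretory vesicles, was at 6.05 to 18.3 in YAP and 256 to 431 in BrafYAP, and Hao1, a peroxisomal glycolate oxidase, was at 0 in all YAP libraries and 15.4 to 57.5 in BrafYAP. Prl2c2, a proliferin gene with close paralogs that can share reads, and Gm20458 had means under 1 scaled read in YAP. Prl2c2, Gm20458 and Hao1 thus passed the minimum of 10 through BrafYAP alone. The 1 added before taking logs largely sets their YAP values, and so weighs on their nearness to Hmga2. Hmga1b ranked 137 and the summed pair would rank 297. The oncofetal genes ranked 2554 (Igf2bp2), 5196 (Igf2bp1), 9414 (Hmga1) and 12883 (Igf2bp3). This likeness uses the same contrast by which Hmga2 was chosen and is a description.

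Genes that stand around these families were read as 6 lists, in which 0 genes passed the adjusted threshold (limma), so the counts below are at an unadjusted p. The lists share some genes, among them Igf2, H19 and Mycn. Plag1 is counted as higher in both the HMGA list and the list of other oncofetal genes. For let-7 processing, 14 of 15 genes were tested, with 0 higher and 2 lower at an unadjusted p under 0.05. Of all genes tested, 9.7% were higher and 10.6% lower at that p. The median log2 fold change of the list was -0.58, and -0.38 without BrafYAP replicate 6. Hnrnpa1, which binds the let-7a precursor, was at 2274, 1449 and 2003 scaled reads in YAP and 1229.6, 922 and 709 in BrafYAP (log2 fold change -1.01, SE 0.33, limma unadjusted p = 0.0168, adjusted p = 0.161). Drosha, the nuclear RNase that cuts microRNA precursors out of their transcripts, had a log2 fold change of -0.97 (SE 0.40, unadjusted p = 0.0435, adjusted p = 0.233), which became -0.58 (unadjusted p = 0.0895) without BrafYAP replicate 6. Xpo5, the exporter of precursors and the most abundant of the list, was at -0.94 (adjusted p = 0.311), and at -0.44 without the same library. The enzymes that LIN28A recruits to tail let-7 precursors, Tut4 and Tut7, had log2 fold changes of 0.46 and 0.22, and Dis3l2, which degrades the tailed RNA, -0.19, and none of these 3 passed an unadjusted p of 0.05. Without BrafYAP replicate 6 the values of Tut4 and Tut7 were 0.18 and 0.0048. Of 16 host and precursor transcripts of let-7, 2 were in the table, Huwe1 (-0.55, and -0.17 without that library) and Wdr82 (-0.24), and neither passed.

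Of 25 other let-7 targets 23 were tested, and 4 were higher and 3 lower at an unadjusted p under 0.05, where 9.7% of all genes were higher and 10.6% lower. The median log2 fold change was 0.24, and 0.38 without BrafYAP replicate 6. Ccnd1, the cyclin that ERK signaling induces, was at 3011, 11308 and 10060 scaled reads in YAP and 30100.2, 21202 and 16067.5 in BrafYAP (log2 fold change 1.63, SE 0.55, limma unadjusted p = 0.0195, adjusted p = 0.17). Irs2, an adaptor of the insulin receptor, had a log2 fold change of 0.71 (unadjusted p = 0.0329, adjusted p = 0.208), with an unadjusted p of 0.077 in limma without BrafYAP replicate 6. E2f2, a cell cycle transcription factor, went the other way, at -1.74 (unadjusted p = 0.015, adjusted p = 0.155). Thbs1, a matrix protein and YAP target that was the most abundant of the list, was at 98009 to 169743 scaled reads in YAP and 88882, 117167 and 7760 in BrafYAP. That last value, in BrafYAP replicate 6, set its log2 fold change of -1.57, which was -0.33 without the library.

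Of 20 genes linked to HMGA proteins as targets or partners 18 were tested, with 5 higher and 3 lower at an unadjusted p under 0.05, against 9.7% and 10.6% of all genes. The median log2 fold change was 0.38. Snai2, the mesenchymal transcription factor Slug and a known target of HMGA2, was at 5.09, 13.3 and 0 scaled reads in YAP and 57.0, 59.8 and 84.4 in BrafYAP (log2 fold change 3.92, SE 1.01, limma unadjusted p = 0.0056, adjusted p = 0.114). Its YAP mean of 6.13 was under the minimum of 10, so Snai2 entered the fit only through its BrafYAP level. A rise was thus favored in advance, and Snai2 is among the 5 counted as higher. Junb, an AP-1 subunit and the most abundant of the list, was at 1104, 51642 and 8425 scaled reads in YAP and 58496, 55579 and 77598 in BrafYAP, so that YAP replicate 2 was close to the BrafYAP libraries. Its unadjusted p was 0.0416 in limma, and 0.0852 without BrafYAP replicate 6. Nfkb1, a partner of HMGA1 at inflammatory promoters, was lower, at 707 to 1039 scaled reads in YAP and 284 to 381 in BrafYAP (log2 fold change -1.41, SE 0.30, limma unadjusted p = 0.0019, adjusted p = 0.093). Nfkb1 is expressed by immune cells, whose marker sum was also lower, and the part of those cells in its difference was not tested. Ccnb2, a mitotic cyclin whose gene HMGA proteins are reported to activate, was at -1.77 (unadjusted p = 0.0093, adjusted p = 0.133), and 12 of 16 genes of the cell cycle list were lower and 0 higher at an unadjusted p under 0.05, with a median of -1.75.

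Of 18 IGF2BP clients and partners 17 were tested, with 1 higher and 0 lower at an unadjusted p under 0.05. The shares of all genes were 9.7% and 10.6%, and the median of the list was -0.18. The gene that was higher was Hnrnpu, a nuclear RNA-binding protein of the same complexes (log2 fold change 0.88, SE 0.31, limma unadjusted p = 0.0233, adjusted p = 0.181), whose unadjusted p was 0.0563 without BrafYAP replicate 6. Actb, whose mRNA gave the first known IGF2BP its name of zipcode-binding protein, was the most abundant of the list, at 274275 to 616304 scaled reads in YAP and 210754 to 525003 in BrafYAP. Igf2 itself, the client that names the family, was at 3.63 to 19.4 scaled reads in YAP and 16.3 to 39.6 in BrafYAP (limma adjusted p = 0.345). H19 was at 41.7 to 70.3 scaled reads in YAP and at 189, 631 and 1.76 in BrafYAP replicates 1, 2 and 6. BrafYAP replicates 1 and 2 thus lay above the YAP range and replicate 6 below it. Its log2 fold change was 0.33, and 2.66 without BrafYAP replicate 6 (limma unadjusted p = 0.0029).

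Among the genes of m6A, the mark that IGF2BP proteins read, all 15 in the table were tested. At an unadjusted p under 0.05, 2 were higher and 1 lower, against 9.7% and 10.6% of all genes. The median of the list was -0.29, and -0.0144 without BrafYAP replicate 6. Wtap, a regulatory subunit of the methyltransferase, was at 191, 369 and 231 scaled reads in YAP and 592, 794 and 1147 in BrafYAP (log2 fold change 1.68, SE 0.39, limma unadjusted p = 0.0033, adjusted p = 0.104). Mettl3, the catalytic subunit, went the other way, at 892 to 1134 in YAP and 498 to 638 in BrafYAP (log2 fold change -0.90, SE 0.27, unadjusted p = 0.0128, adjusted p = 0.147). The reader Ythdf3 had a log2 fold change of 1.65 (unadjusted p = 0.0122, adjusted p = 0.145), and the demethylase Fto, the most abundant of the list, -0.67 (adjusted p = 0.287).

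Of 18 other oncofetal genes 15 were tested, with 3 higher and 1 lower at an unadjusted p under 0.05. The shares of all genes were 9.7% and 10.6%. The median of the list was 0.33, and 0.84 without BrafYAP replicate 6. Tpbg, the trophoblast glycoprotein 5T4, was at 103, 207 and 148 scaled reads in YAP and 633, 1272 and 350.1 in BrafYAP (log2 fold change 2.15, SE 0.53, limma unadjusted p = 0.0044, adjusted p = 0.108). Gpc3, a heparan sulfate proteoglycan known from fetal liver, was at 12.1 to 44.9 scaled reads in YAP and 161, 69.1 and 1746 in BrafYAP (log2 fold change 3.66, 2.32 without BrafYAP replicate 6). Mdk, the growth factor midkine, was lower, at 109 to 272 in YAP and 35.1 to 84.7 in BrafYAP (log2 fold change -1.63, unadjusted p = 0.0151, adjusted p = 0.156). Dlk1, an imprinted Notch-like membrane protein, was at 1.21 to 5.10 scaled reads in YAP, and at 114, 1.55 and 116813 in BrafYAP replicates 1, 2 and 6, so a single tumor carried its difference. Sall4 was at 0 in all 6 libraries and Trim71, the embryonic let-7 target and LIN28 partner, at 0 to 3.11 scaled reads.

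**Figure D5:**
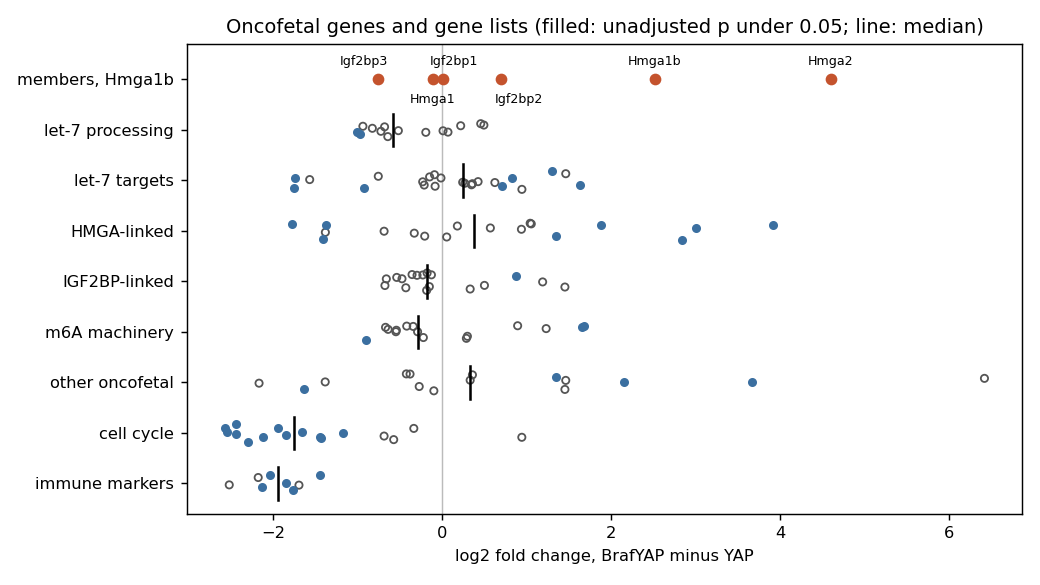
The x axis is the log2 fold change of scaled reads, BrafYAP minus YAP. The top line holds the 5 oncofetal genes tested and Hmga1b, and each line below holds the tested genes of a list, filled where the unadjusted p was under 0.05, with the list's median as a bar. Hmga2 lies at 4.60 and the IGF2BP genes between -0.75 and 0.69, and the medians of the cell cycle and immune lists are -1.75 and -1.94.

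Markers of other cell types differed with genotype for some lists. At an unadjusted p under 0.05, 9.7% of all genes were higher and 10.6% lower. Of the 8 immune markers tested, 5 were lower and 0 higher at that p. Of 8 fibroblast markers, 2 were higher and 1 lower, with sums of 14253 to 28571 in YAP and 12437 to 28123 in BrafYAP. Of 7 epithelial and 10 thyroid markers tested, 1 each was higher and 0 lower, and of 6 endothelial markers 0 passed in either direction. The part of these cells in the levels of Hmga2, the Hmga1 pair and the IGF2BP genes was not tested.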

How the data were processed

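RNA-seq covered 6 libraries of Kate-positive thyroid tumor cells. RNA was amplified with 12 cycles and libraries with 8 cycles of PCR, and reads were paired, of 50 nt. Alignment by the authors was to mm10 with STAR 2.6.1d (version per the submitters' processing notes), and Partek E/M on Ensembl 95 gave the TPM, deposited after adding 0.0001.

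The deposited TPM had been divided by the genomic span of each gene. Low values multiplied by the span came out as whole reads (within 0.05) for 71.7 to 76.0% of values, against 24.7 to 27.6% with exonic length (GENCODE M21, 34640 genes at 1 locus). Estimated reads were (value - 0.0001) × span / step, scaled reads keep the authors' scaling between libraries, and TPM on exonic length were recomputed from them. E/M can divide reads between genes, and reads without molecular identifiers cover counting error only.

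TPM are not counts, so the genotypes were compared by limma 3.58.1 (R 4.3.3; lmFit, eBayes with trend), two-sided, on log2(scaled reads + 1). Genes averaging 10 or more scaled reads were tested, and p-values were adjusted by Benjamini-Hochberg over all genes at a threshold of 0.05. The average was over all libraries, so a gene low in either group could enter through the other alone. The limma fit was tested on simulated normal log2 values with the same spread in both groups and without a library that stands apart. IGF2BP shares were compared by exact permutation (scipy 1.17.1). The p-values measure the spread between these libraries. An unadjusted p under 0.05 is used to count and describe genes, since 0 genes passed the adjusted threshold.

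Members and lists were chosen with earlier results of these data known, and list genes were written from general knowledge. Named list genes are those past the adjusted threshold or, where a list had none, the up to 3 with the smallest unadjusted p under 0.05, plus the most abundant. Other list genes and markers, and Hmga1b, were named after their values were seen. Mature microRNAs and promoters came from RefSeq tables (GRCm38.p6), which held promoters for 6 of 7 members. Alternatives were other pseudocounts, filters, scalings and length units, voom, array weights, eBayes without a trend, a replicate block and each library left out.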

Additional observations from a re-analysis of the deposited data

How the results depend on the processing

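The adjusted threshold was passed by 0 of the tested members other than Hmga2 in all settings except array weights, where 1 passed (Hmga1, lower). The number tested was 4 in most settings, but 1 on deposited values with 1 added, and 5 without a filter on low values. It was 3 on deposited values with 0.01 added, with a mean of at least 100 reads and on exonic TPM. The count at an unadjusted p under 0.05 was 0, and 1 with array weights, with a replicate block, or with the Hmga1 pair summed (a setting chosen after seeing the data), and 0 to 1 as each library was left out, the 1 being Igf2bp2 without YAP replicate 3 (log2 fold change 1.02). The Hmga2 log2 fold change was 3.13 on deposited values with 0.01 added, 4.01 with a pseudocount of 10 reads, 2.43 on exonic TPM with 1 added, pseudocounts that are large beside its YAP level, and 4.41 to 4.80 as each library was left out. Hmga1 turned to 0.0133 with median-ratio rescaling and ran from -1.08 to 0.43 as libraries were left out. Igf2bp1 turned to -0.0765 with quantile normalization and -0.18 with array weights, and ran from -0.13 to 0.15. Igf2bp3 turned to 0.0392 with a pseudocount of 10 reads, 0.48 with array weights and 1.50 with the block, and ran from -1.82 to 1.19, positive only without BrafYAP replicate 6. The Igf2bp2 share stayed 8.61 to 13.2 percentage points higher in BrafYAP as libraries were left out, 11.0 with genomic span and 10.6 without Igf2bp3. Over all genes, calls at the adjusted threshold rose from 0 to 2409 higher and 2254 lower with array weights, and were 44 higher and 146 lower without BrafYAP replicate 6. What caused them was not tested.

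Replicate numbers 1 and 2 occur in both groups, but libraries of the same number did not deviate together from their group means (r = -0.03 and 0.05). With 3 libraries per group this check cannot exclude a shared batch, and the main fit treated the libraries as unpaired. With the replicate block the log2 fold changes were 4.69 for Hmga2, 1.14 for Igf2bp2 (limma adjusted p = 0.316), 0.23 for Igf2bp1 and -0.56 for Hmga1, and 0 members passed the adjusted threshold. Without BrafYAP replicate 6, the number of calls per list changed by at most 1 in each direction, except the thyroid list, where 4 markers were then lower. Which genes were called changed more. In the IGF2BP list the single call passed from Hnrnpu to H19. In the HMGA list Junb and Plag1 dropped out, and Cdkn2a, Snai1 and Tgfbr2 came in. Depth limits Igf2bp3, Lin28a and Lin28b, where a few reads decide a value.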
